A study of Mus musculus with 6 samples.

Results

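Leukocyte integrins were described here through 10 genes out of the 18194 genes on an array of mouse MLL-ENL leukemias. The members were chosen by name: Itgal, Itgam, Itgax, Itgb2, Itga4, Itgb7, Itgb1, Itga5, Itga6 and Itgb3. All 10 were on the array, with 25 probe sets, the short oligonucleotide sets that each report 1 transcript region. Total RNA had been taken from 6 separate C57BL/6 leukemias, 3 labelled Runx1-KO (Runx1 excised) and 3 labelled Control (Runx1 intact). In both groups, donor bone marrow had received MLL-ENL, which joins the chromatin regulator MLL to the elongation factor ENL, and had been transplanted into congenic mice, from which leukemic cells were taken at the moribund stage. The agent that excised Runx1 and the age and sex of the animals are not given in the sources used here. Values are linear intensities per probe set, and each difference is the mean log2 intensity of Runx1-KO less that of Control, with its standard error (SE).

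Integrins are membrane receptors made of an alpha and a beta chain, and a chain reaches the cell surface only with a partner. On leukocytes they stay in a low-affinity form until talin and kindlin bind the beta tail, after which cells arrest on vessel walls, crawl and hold on to the marrow matrix. The beta2 integrins are restricted to blood cells, while the beta1 integrins, above all VLA-4, anchor blood progenitors and leukemic cells to stroma.

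Of the 10 integrin genes, 0 passed the test between genotypes (limma, Benjamini-Hochberg adjusted p under 0.05 across the gene table), where 0.0879% of all genes did. At an unadjusted p under 0.05 there were 2 of 10, against 12.6% of all genes. These were Itga4, the alpha chain of VLA-4, lower in Runx1-KO arrays, and Itga5, the alpha chain of the fibronectin receptor VLA-5, higher there. In the same 2 genes the groups did not overlap, a share close to the 20.9% of all genes. The median log2 difference of the 10 was -0.16, against -0.01 over all genes, with 4 higher and 6 lower. All 10 lay above the background limit of every array.

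**Figure D1:**
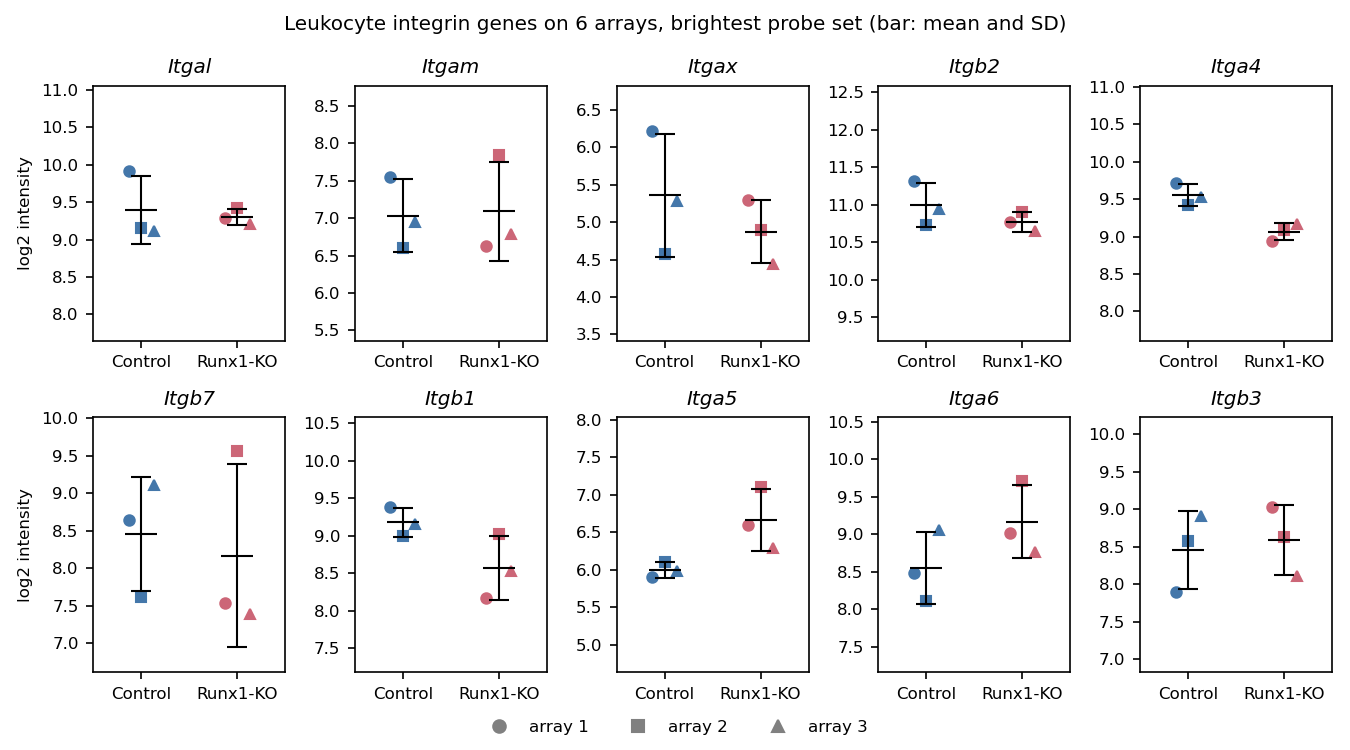
Log2 intensity of the 10 integrin genes in Control (blue) and Runx1-KO (red) arrays, brightest probe set of each gene, with the mean and SD of 3 arrays as bars and array number as the symbol. Every panel spans the same number of log2 units, and only Itga4 and Itga5 have groups that do not overlap.

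Promoter sequence was available for 6 of the 10 genes, and 3 are shown because they encode the chains of VLA-4 and VLA-5, whose alpha chains lay on opposite sides of Control. Each run is the 250 bases before the RefSeq start on GRCm38.p6, read 5′ to 3′ on the gene's strand, with motif matches in capitals. The windows are chr2:79255176-79255425 (plus strand) for Itga4, chr15:103366792-103367041 (minus strand) for Itga5 and chr8:128685404-128685653 (plus strand) for Itgb1.
Itga4: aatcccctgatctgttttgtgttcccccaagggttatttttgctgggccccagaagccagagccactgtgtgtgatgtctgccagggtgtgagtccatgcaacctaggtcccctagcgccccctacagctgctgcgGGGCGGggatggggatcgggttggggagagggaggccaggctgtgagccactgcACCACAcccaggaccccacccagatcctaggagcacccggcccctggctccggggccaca
Itga5: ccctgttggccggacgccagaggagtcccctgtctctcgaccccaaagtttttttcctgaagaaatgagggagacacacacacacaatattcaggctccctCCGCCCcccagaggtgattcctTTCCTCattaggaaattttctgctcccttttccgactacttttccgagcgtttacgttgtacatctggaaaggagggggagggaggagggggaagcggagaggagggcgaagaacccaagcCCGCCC
Itgb1: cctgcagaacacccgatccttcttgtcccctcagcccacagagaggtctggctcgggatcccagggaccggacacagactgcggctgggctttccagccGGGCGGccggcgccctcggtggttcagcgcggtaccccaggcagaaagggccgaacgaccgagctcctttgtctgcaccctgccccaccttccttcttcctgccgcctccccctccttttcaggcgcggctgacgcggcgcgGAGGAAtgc
The motifs searched on both strands were TGTGGT and TGCGGT (RUNX), GAGGAA (PU.1, the myeloid ETS factor) and GGGCGG (Sp1), and no matches overlapped. Itga4 alone of the 6 held a RUNX match, TGTGGT on the opposite strand (printed as ACCACA), which begins 60 bases before the start. TGTGGT occurs in 14.0% of the 32851 windows of this length in the RefSeq table and TGCGGT in 5.1%. GAGGAA, found in 23.3% of all windows, stood in Itga5, Itgb1 and, with 2 matches, Itgam. GGGCGG, found in 32.7%, stood in Itga4, Itga5, Itgb1 and Itgam, and Itgax and Itgb7 held none of these letters. The matches describe these windows only.

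The beta2 integrins were examined first, starting with their shared chain. Itgb2 encodes CD18, the beta chain of LFA-1, Mac-1 and CD11c/CD18, and its loss in patients causes leukocyte adhesion deficiency. Its intensity was 1743, 1912 and 1599 in Runx1-KO 1, 2 and 3 and 2554, 1701 and 1962 in Control 1, 2 and 3. Control 1 stood above the rest, and the other Control arrays lay within or just above the range of the Runx1-KO arrays. The log2 difference was -0.23 ± 0.22 (SE, n = 3 per group; limma adjusted p = 0.713), with a 95% interval of the Runx1-KO to Control ratio from 0.591 to 1.24.

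Itgal encodes CD11a, the alpha chain of LFA-1, which binds ICAMs and serves firm arrest and immune synapses. Its intensity was 623, 685 and 591 in the 3 Runx1-KO arrays and 962, 569 and 555 in the 3 Control arrays. Control 1 was again the highest, while Control 2 and 3 were the lowest of all 6. The difference was -0.09 ± 0.27 (adjusted p = 0.917), with a ratio interval from 0.600 to 1.47, and both Itgal probe sets were slightly lower. Without Control 1 it was 0.17, so the direction rested on that array.

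Itgam encodes CD11b, the alpha chain of Mac-1, a complement and fibrinogen receptor that marks granulocytes and monocytes. Its single probe set read 99.0, 230.1 and 111 in the Runx1-KO arrays and 187, 96.6 and 124 in the Control arrays. Runx1-KO 2 was highest, Control 1 next, and the other 4 arrays lay together irrespective of genotype. The difference was 0.06 ± 0.41 (adjusted p = 0.968), and it was -0.32 without Runx1-KO 2. The ratio interval ran from 0.522 to 2.07.

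Itgax encodes CD11c, which pairs with CD18 and is abundant on dendritic cells and some macrophages. Its signal was closest to background among the members, at 39.1, 29.6 and 21.8 in the Runx1-KO arrays and 74.1, 23.8 and 38.8 in the Control arrays, where background limits ran from 14.1 to 22.5. Control 1 was the only array well apart. The difference was -0.48 ± 0.46 (adjusted p = 0.703), or -0.05 without Control 1. The 3 alpha chains and the beta chain described here thus had overlapping groups, and Control 1 was highest for 3 of the 4.

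The alpha4 and beta7 chains followed. Itga4 encodes CD49d, which pairs with the beta1 chain as VLA-4, the receptor for VCAM-1 and fibronectin in marrow, and with the beta7 chain as LPAM-1. Its brightest probe set read 492, 543 and 573 in the Runx1-KO arrays and 838, 686 and 735 in the Control arrays. Every Runx1-KO array lay below every Control array. The level was 1.40-fold higher in Control, a log2 difference of -0.49 ± 0.18 with a 95% interval from -0.93 to -0.05, but the adjusted p over all genes was 0.358. The difference stayed between -0.55 and -0.35 over all 19 alternatives, which included leaving out each array.

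The other Itga4 probe sets did not all repeat this. The second brightest read 513, 479 and 456 in the Runx1-KO arrays and 779, 677 and 558 in the Control arrays. The third brightest read 340.1, 477 and 401 against 647, 523 and 498. In both, the groups again did not overlap, with differences of -0.46 ± 0.21 and -0.46 ± 0.23. The fourth, at 584, 392 and 445 against 512, 411 and 445, showed no such separation (0.04 ± 0.23). The dimmest, at 21.5 to 47.4 against 39.1 to 49.7, had a difference of -0.48 ± 0.32. Thus 4 of 5 Itga4 probe sets were lower and 3 had groups that did not overlap. Of all probe sets above background on every array of at least 1 group, 17% were lower without overlap. Probe sets of 1 gene read the same RNA and are not independent evidence.

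By a fixed rule, the genes most like the integrin of lowest p, which was Itga4, were sought among 9702 other genes above background on all arrays. Lyz1, Ipo13 and Mettl21a had the highest Pearson correlations of log2 level with it, at 0.993, 0.990 and 0.988 over the 6 arrays. Such values come from 6 points that share the group difference, and they are given as a description.

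Itgb7 encodes the beta7 chain, which with alpha4 binds MAdCAM-1 on gut vessels. Over the 6 arrays it had the widest range of the members, at 185, 760.2 and 168 in the Runx1-KO arrays and 401, 196 and 552 in the Control arrays. The highest array exceeded the lowest 4.53-fold within Runx1-KO and 2.82-fold within Control. The difference was -0.29 ± 0.68 (adjusted p = 0.891), and the ratio interval ran from 0.259 to 2.58. It was -0.99 without Runx1-KO 2 and 0.12 without both arrays numbered 1, so no direction could be read.

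Among the beta1 integrins, Itgb1 encodes CD29, the shared chain of the VLA receptors, through which blood cells hold on to fibronectin and laminin. The brightest of its 6 probe sets read 289, 522 and 369 in the Runx1-KO arrays and 671, 513 and 569 in the Control arrays. Runx1-KO 1 and 3 lay below all Control arrays, while Runx1-KO 2 lay just above Control 2. The level was 1.52-fold higher in Control (-0.61 ± 0.27, adjusted p = 0.419), with a 95% interval from -1.26 to 0.05.

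The second Itgb1 probe set, at 239.9, 470.0 and 370.2 against 523, 488 and 473, separated the groups narrowly (-0.51 ± 0.29). The third, which like the fourth is named by the array as open to cross-hybridisation, read 203, 347 and 257 against 407, 335 and 377 (-0.50 ± 0.26). The next by brightness lay near background, at 28.9 to 39.6 against 30.4 to 40.4 and at 20.9 to 38.8 against 32.9 to 46.7. The sixth, with no signal above 2.27, was below the background limit on all 6 arrays and gives no direction. All 5 Itgb1 probe sets above background were therefore lower in the Runx1-KO arrays, by -0.61 to -0.04. Runx1-KO 1, the lowest array on the 3 bright sets, also had a 3′ to 5′ Gapdh signal ratio of 7.10, a measure of RNA degradation, against 2.67 to 3.02 elsewhere. The same ratio for Actb was 1.11 there and 1.03 to 1.10 elsewhere. Without Runx1-KO 1 the Itgb1 difference was -0.41, and without both arrays numbered 1 it was -0.30.

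Itga5 encodes the alpha chain that pairs with beta1 as the classical fibronectin receptor. Its brightest probe set, named by the array as shared between transcripts, read 97.4, 138 and 78.0 in the Runx1-KO arrays and 59.9, 69.0 and 63.5 in the Control arrays. The Runx1-KO arrays were all above the Control arrays, with Runx1-KO 2 the farthest. The level was 1.59-fold higher (0.67 ± 0.25, 95% interval 0.05 to 1.28), with an adjusted p of 0.367 over all genes. A dimmer set repeated the size without separating the groups, at 58.9, 71.1 and 26.4 against 31.4, 34.4 and 25.3 (0.67 ± 0.40). The remaining sets, both dim, differed by 0.19 ± 0.41 and -0.22 ± 0.36. With the mean of all 4 sets in place of the brightest, the Itga5 difference was 0.33.

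Itga6 encodes the alpha chain of the laminin receptors, with beta1 in blood cells and also with beta4 in epithelia. It read 521, 841 and 436 in the Runx1-KO arrays and 359, 275 and 532 in the Control arrays. Runx1-KO 2 was highest, but Control 3 exceeded both other Runx1-KO levels. The difference was 0.62 ± 0.35 (adjusted p = 0.514), with a ratio interval from 0.848 to 2.79. The second probe set gave 240, 484 and 219 against 153, 158 and 276, a difference of 0.64 ± 0.40, so both sets placed the arrays alike. Fitted differences of the alpha chains Itga5 and Itga6 were thus positive, while that of their beta1 partner was negative. The contrast between chains was not tested, since it was picked after the values were seen.

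Itgb3 encodes the beta3 chain, which makes the platelet fibrinogen receptor with Itga2b and the vitronectin receptor with Itgav. Its brightest probe set read 524, 394 and 277 in the Runx1-KO arrays and 238, 381 and 479 in the Control arrays. The groups covered nearly the same range, with Runx1-KO 1 at the top and Control 1 at the bottom. The difference was 0.13 ± 0.36 (adjusted p = 0.905), or -0.37 without both arrays numbered 1. Its second set read 35.9, 76.8 and 49.7 against 33.6, 32.2 and 62.8 (0.34 ± 0.39).

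**Figure D2:**
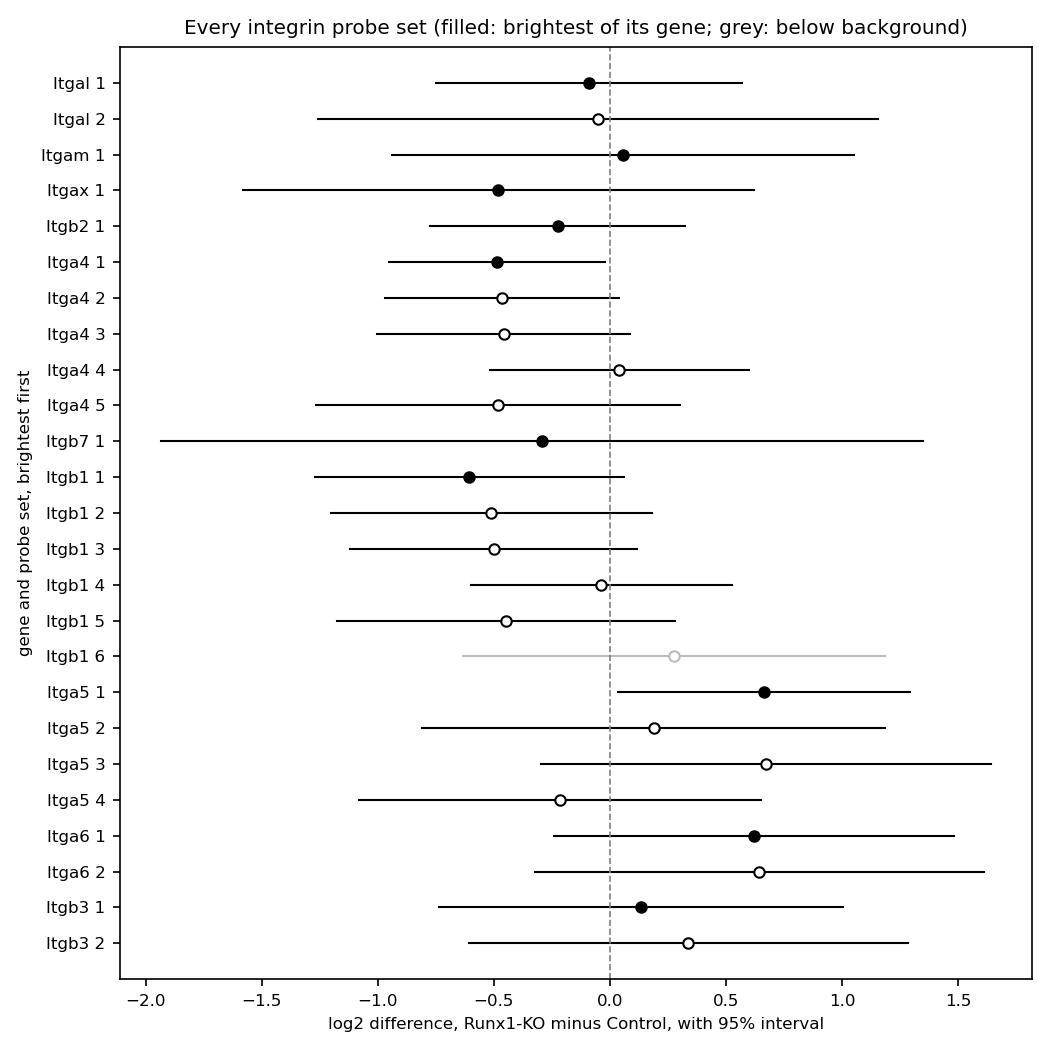
Log2 difference with its 95% interval for each of the 25 integrin probe sets, from a fit over 34958 probe sets, with probe sets of a gene numbered from the brightest. Filled points are the brightest of their gene, the grey one lies below background in both groups, and only the first sets of Itga4 and Itga5 have intervals that leave out 0.

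Over all 25 probe sets, 0 passed in the fit over 34958 probe sets with 1 gene symbol, of which 0.0858% passed. An unadjusted p under 0.05 was found for 2, against 12.3% overall. The lowest adjusted p was 0.384, for Itga5. Groups did not overlap in 5 of 25, against 20.4% overall. Of the 24 integrin sets above background on every array of at least 1 group, 1 was higher without overlap and 4 were lower. Of all such probe sets, 9.68% were higher without overlap and 17% lower, or 26.7% in all.

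Across arrays, Control 1 was highest for 5 of the 10 members (Itgal, Itgax, Itgb2, Itga4 and Itgb1), and Runx1-KO 2 for 4 (Itgam, Itgb7, Itga5 and Itga6). Among 9703 genes above background on every array, Control 1 was highest for 17.8% and Runx1-KO 2 for 21%. The same arrays were highest for 5 and 4 of the 12 signalling genes and 6 and 7 of the 19 ligands described below. They were highest for fewer of the 14 other integrin subunits (2 and 1) and of the 12 selectins and further adhesion molecules (1 and 3). For the 28 activation genes the counts were 5 and 10. The lists thus varied, the difference between them was not tested, and nothing particular to the integrins is read from these counts. Relative to each gene's own mean over 6 arrays, Control 1 stood at 1.10 log2 units for Itgax and 0.56 for Itgal. Runx1-KO 2 stood at 1.26 for Itgb7, 0.86 for Itga6, 0.79 for Itgam and 0.77 for Itga5. Control 1 was at the same time lowest for Itga5 and Itgb3, so it was not high for every integrin.

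**Figure D3:**
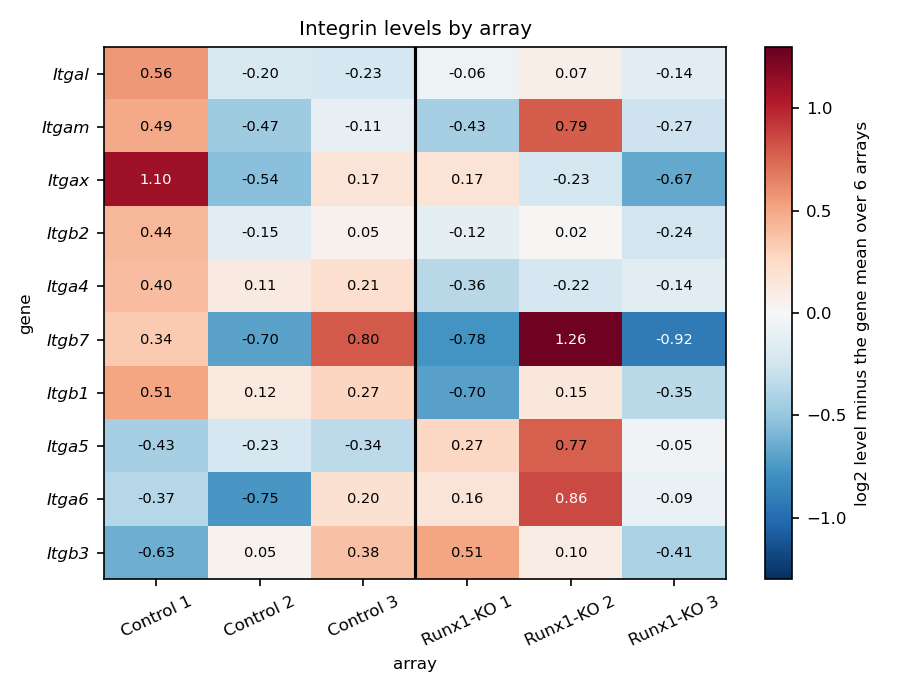
Log2 level of each integrin gene on each array minus the gene's mean over the 6 arrays, with Control left and Runx1-KO right of the line. The beta2 chains peak in Control 1 except Itgam, and Itgb7, Itga6, Itgam and Itga5 peak in Runx1-KO 2.

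Leaving arrays out showed which fitted directions hung on single arrays. Itgal, Itgam, Itgb7 and Itgb3 changed sign when at least 1 array was left out, and the other 6 genes kept theirs in every such fit. Itgb2 and Itgax came close to 0 without Control 1, at -0.06 and -0.05.

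**Figure D4:**
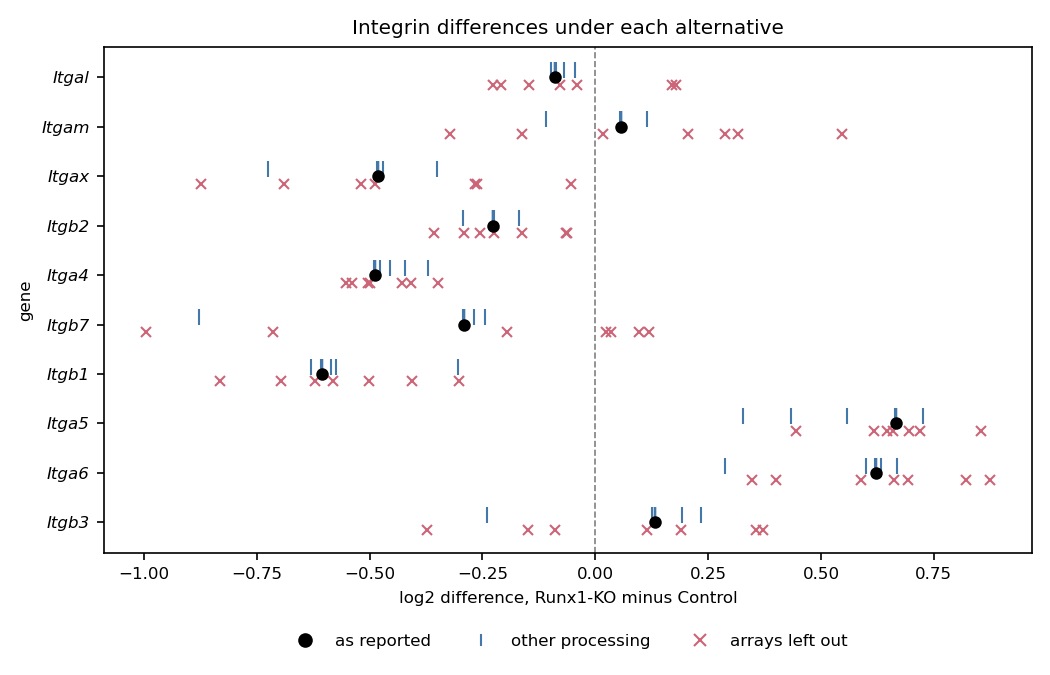
Log2 difference of each integrin gene as reported (black), under other processing (blue) and with arrays left out (red). Itgax, Itgb2, Itga4, Itgb1, Itga5 and Itga6 stay on their side of 0, while Itgal, Itgam, Itgb7 and Itgb3 do not.

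Some series-wide values bear on these differences. Runx1 itself read 680.3 to 1021 in Control and 1128 to 1630 in the arrays labelled Runx1-KO, so its signal did not settle the labels, since the place of its probes relative to the excised part is not known here. Sex and genotype could not be told apart. The female-specific RNA Xist read at least 1624 in each array labelled Runx1-KO and 330.8, 85.4 and 25.3 in Control 1, 2 and 3. The Y-linked Eif2s3y read at most 6.31 in the Runx1-KO arrays and at least 638 in Control. Why Xist was highest in Control 1 among the Control arrays was not tested. Of 12 genes that define myeloid leukemia cells, such as Ptprc, Spi1, Mpo and Meis1, 11 were above background on all 6 arrays, and the other, Flt3, on 5. No integrin member is X-linked or Y-linked in RefSeq, but the part of sex in their levels was not tested and cannot be told apart from genotype here.

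Markers of other cell types were read beside these values, and 0 genes of any marker list passed the test over all genes. In bulk RNA, fewer cells of a type and less RNA per cell cannot be told apart. All 11 measured granulocyte markers were higher in the Runx1-KO arrays, as were 8943 of all 18194 genes. An unadjusted p under 0.05 was found for 8, against 12.6% of all genes. Their summed intensity was 16578 to 19169.8 against 8626 to 13283 in Control. S100a8 and S100a9 made up most of it, and the other 9 summed to 4794 to 6237 against 1825 to 2701. Of 12 monocyte and macrophage markers 10 were lower, as were 9245 of all genes, and 7 had an unadjusted p under 0.05 (12.6% of all genes). Their sums were 10591 to 11947 against 13359 to 17888. Itgam, which both cell types carry, had overlapping groups.

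The erythroid sum was 6594 in Control 1 against 838 to 1265 elsewhere, with all 7 measured genes highest in Control 1. Tfrc made up most of the sum on the other arrays, at 744 to 1196, and read 1971 in Control 1. The dendritic cell list summed to 1314 in Control 1, of which 1221 came from the MHC class II genes H2-Aa, H2-Ab1 and H2-Eb1 and from Cd74, which other cells also carry. The other 7 genes of that list summed to 92.8 in Control 1 and 37.1 to 183 elsewhere, and 6 of its 11 genes, including Zbtb46, Ccr7 and Xcr1, were below background on all arrays. Of 12 T and NK cell genes 4 (Cd4, Cd8b1, Gzmb and Ncr1) were below background on all arrays and 0 were above it on all 6. In the Runx1-KO arrays 9 of the 12 were lower, as were 9245 of all 18194 genes. An unadjusted p under 0.05 was found for 7, against 12.6% of all genes. Groups did not overlap in 7, of which 6 were lower, against 20.9% of all genes. The sums were 132 to 185 against 157 to 252. Markers of megakaryocytes and platelets, cells rich in Itgb3, summed to 468 to 780.0 against 207 to 341, with 8 of 10 higher. Without Thbs1, which other cells also make, they summed to 262 to 581 against 197 to 307, and those ranges overlapped.

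B cell markers summed to 340 to 574 against 346 to 479, and mast cell and basophil markers to 822 to 1134 against 498 to 1294, so these ranges overlapped as well. Stromal and endothelial markers summed to 205 to 231 against 239 to 408. Of these 12 genes, however, 7 were higher and 5 lower in the Runx1-KO arrays (median log2 difference 0.03), and 5 were below background on all arrays. The rule for named genes took the 2 of lowest p in each list among markers above background on all arrays of a group. Dimmer markers, such as Gzma, Zbtb46 and Epor, could have a lower p. The rule gave Cxcr2 and Il1r2 (granulocyte), Adgre1 and Mpeg1 (monocyte), H2-Ab1 and H2-Aa (dendritic), and Nkg7 and Cd8a (T and NK). It also gave Vpreb1 and Ebf1 (B), Klf1 and Slc4a1 (erythroid), Thbs1 and F2r (megakaryocyte), Tpsb2 and Hdc (mast cell), and Acta2 and Pdgfrb (stromal). The limma adjusted p of these genes ran from 0.0523 for Cxcr2 to 0.675 for Slc4a1. Nkg7 and Cd8a were higher in the Runx1-KO arrays, while 9 of the 12 genes of their list were lower. Acta2 and Pdgfrb were lower at their brightest probe sets, though 2 of the 3 Acta2 probe sets were higher. Vpreb1 was lower and Ebf1 higher, while 7 of the 9 B cell genes were higher. The part of these cells in the integrin values was not tested.

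The alpha and beta chains that can pair with the members were then read from the same fit, in which 12.6% of all genes had an unadjusted p under 0.05, 20.9% had groups that did not overlap and the median difference was -0.01. Of 14 further integrin subunits measured, 0 passed, 2 had an unadjusted p under 0.05, 8 were higher and 6 lower, and the median difference was 0.03. Itgav, the vitronectin receptor alpha chain, differed by 0.04 ± 0.17 (adjusted p = 0.952). Itga2b, the platelet alpha chain, read 82.7, 41.3 and 35.6 in the Runx1-KO arrays and 20.0, 36.2 and 13.9 in Control. There, 1 array was below background, and the groups overlapped. With that array raised to its background limit, the estimate was 1.95-fold higher in the Runx1-KO arrays. As read, the ratio interval ran from 1.04 to 5.05 (adjusted p = 0.374). Itgae, the alphaE partner of beta7, was close to background in both groups (adjusted p = 0.858). Itgb5, a beta chain that pairs with Itgav, had the lowest p of the list, at 76.2, 76.4 and 69.3 against 193, 219 and 171. It was 2.61-fold higher in Control (-1.39 ± 0.18, adjusted p = 0.104), with all 4 of its probe sets lower in the Runx1-KO arrays. Itga10, Itgb4, Itgb6 and Itgb8 were below background on all arrays.

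Ligands of the integrins, which neighbouring cells or matrix usually supply, were mostly dim, with 6 of 19 above background on all arrays. Those 6 were Icam1, Vcam1, Jam3, Fn1, Lama5 and Cd47, and their groups overlapped. Groups did not overlap in 2 of the 19, against 20.9% of all genes. Of 19 measured, 0 passed, 3 had an unadjusted p under 0.05, 13 were higher and 6 lower (median 0.21), and 7 were below background on all arrays. Icam2, a ligand of LFA-1, read 50.9, 17.8 and 36.8 in the Runx1-KO arrays and 94.2, 127 and 88.5 in Control. With the dim Runx1-KO array raised to its background limit, the estimate was 3.06-fold lower, with 2 of 3 Runx1-KO arrays above background. As read, the Runx1-KO to Control ratio interval of Icam2 ran from 0.158 to 0.633 (adjusted p = 0.235). The laminin chain gene Lamc1 differed by 0.83 ± 0.51 (adjusted p = 0.544).

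Genes that switch integrins on or tie them to actin were more evenly measured, with 23 of 28 above background on all arrays. None passed (0 of 28), 3 had an unadjusted p under 0.05, 17 were higher and 11 lower, and the median was 0.05. Itgb1bp1, which encodes ICAP-1, a protein that competes with talin for the beta1 tail, read 132, 168 and 154 against 256, 263 and 211 in Control (-0.68 ± 0.20, adjusted p = 0.287). Pxn, the focal adhesion scaffold paxillin that binds the alpha4 tail, read 1168, 1444 and 1312 against 943, 920.4 and 916 (0.49 ± 0.18, adjusted p = 0.345), with all 3 probe sets higher. In both genes the groups did not overlap, as in 9 of the 28 (20.9% of all genes).

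Kinases and adaptors that signal from bound integrins had a median of -0.19, with 0 of 12 past the threshold, 1 at an unadjusted p under 0.05, 4 higher and 8 lower. Fcer1g and Tyrobp, the ITAM adaptors through which beta2 integrins activate Syk in myeloid cells, were the 2 of lowest p. Fcer1g read 1573, 1947 and 1893 in the Runx1-KO arrays and 2537, 2533 and 2495 in Control (-0.49 ± 0.18, adjusted p = 0.351). Tyrobp read 2975, 3628 and 3564 against 4390.4, 4292 and 4169 (-0.34 ± 0.18, adjusted p = 0.476). Their groups did not overlap, as in 3 of the 12 (20.9% of all genes). Both are also abundant in monocytes, of whose 12 markers 10 were lower and 0 passed, and the part of these cells was not tested.

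Selectins and further adhesion molecules had a median of -0.44, with 0 of 12 past the threshold, 5 at an unadjusted p under 0.05 (12.6% of all genes), 4 higher and 8 lower. Selp, the platelet and endothelial selectin, read 143, 110.1 and 108 against 8.55, 31.7 and 32.0 in Control, where 2 of 3 arrays were above background. With the dim Control array raised to its background limit, the estimate was 4.63-fold higher in the Runx1-KO arrays. As read, the ratio interval of Selp ran from 2.34 to 14.4 (adjusted p = 0.200). Its ligand on leukocytes, PSGL-1, encoded by Selplg, read 354, 272 and 208 against 656, 430.2 and 611. It was 2.05-fold higher in Control (-1.03 ± 0.28, adjusted p = 0.264). In none of these 5 lists did a gene pass over all genes, and each list spread to both sides of 0.

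**Figure D5:**
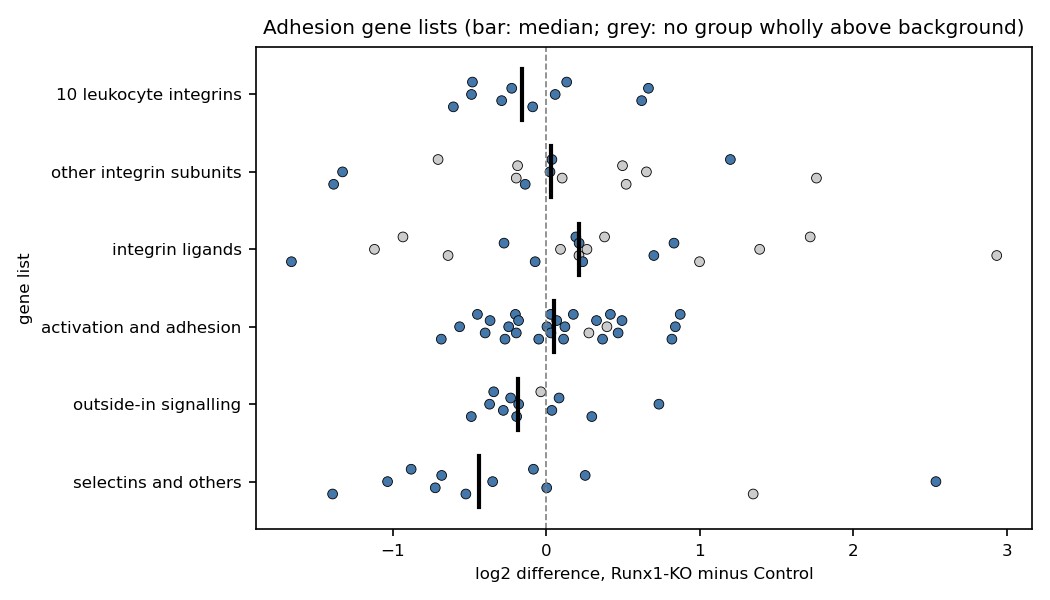
Log2 difference of each measured gene in the integrin set and the 5 adhesion lists, with the list median as a bar and genes without a group wholly above background in grey. The integrins lie between -0.61 and 0.67, and the largest blue values are Selp to the right and Icam2 to the left.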

How the data were processed

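The file deposited by the authors held linear intensity values for 6 arrays of 45101 probe sets, with like medians (24.4 to 26.0), so they had already been scaled. No source used here gives the method. RNA was extracted by spin column and labelled with biotin, per the labels' protocols. By the platform annotation 34958 probe sets had 1 gene symbol, and the 932 with several and 9211 with none were left out. A RefSeq gene table changed 0 of 34754 symbols looked up.

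On log2 values, with the brightest probe set for each of 18194 genes, groups were compared by limma 3.58.1 (lmFit, eBayes; R 4.3.3) in a two-sided test without covariates, filters or blocks. P-values were adjusted across the gene table (Benjamini-Hochberg, threshold 0.05). A second fit took all probe sets with 1 symbol. The scripts were tested on simulated data. Each array's background limit was its brightest signal among 27 bacterial spike-in probe sets taken to have no target RNA. Where arrays of the lower group lay below it, they were raised to it. The resulting fold is a lower bound of the estimate, not of its interval. Intervals and p-values come from the values as read. The number of arrays limits the precision.

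All 10 integrins were named, with Itgav, Itga2b and Itgae. From each adhesion list the genes past the threshold were named, or else the 2 of lowest p above background in a whole group. Marker lists are given by counts, sums and the genes the same rule picks. Other markers, the ligands above background on all arrays, and the genes left out of a sum were named after their values were seen. The members and lists were chosen with earlier results of these data known. Levels of different genes were not compared as amounts of RNA, since probe sets differ in brightness per molecule. Sums over a list are therefore weighted to its brightest probe sets. Alternatives covered scaling, filters, probe set choice, variance model, array weights, threshold, replicate block, offset and left-out arrays.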

Additional observations from a re-analysis of the deposited data

How the results depend on the processing

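No integrin gene passed the threshold in any of the 19 alternatives, nor did any integrin probe set in the 18 that apply to probe sets, and the count was 0 to 0 with each array left out. The lowest adjusted p was 0.159, for Itgb1 with array weights, and 0.159 among probe sets with an offset of 16. Over all genes the count was 16 as reported, 15 to 19 with other scaling or the mean of probe sets, and 16 with a fold of at least 2. It was 34 and 43 under the filters, 104 with a variance trend, 71 with array weights, 64 with the offset, 36 at an adjusted p under 0.1 and 2 with the unmoderated statistic. It was 2 to 3 with 1 array left out and 0 without both arrays numbered 1. With the replicate block it was 0 (lowest adjusted p 0.0919), and 0 integrins passed. Deviations of same-numbered arrays from their group means correlated at -0.01, -0.17 and 0.06 across genes, and those of other pairs at -0.25 to 0.20. With means of 3 arrays, such values cannot show whether same-numbered arrays were handled together. Itgax was dropped by the filter to the brighter genes.

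Of the fitted directions, 4 depended on arrays or weights. With 1 array left out, Itgal ran from -0.23 to 0.17, Itgam from -0.32 to 0.32, Itgb7 from -0.99 to 0.10 and Itgb3 from -0.15 to 0.37. Itgal was 0.17 without Control 1 and 0.18 without both arrays numbered 1. Itgam was -0.11 with array weights, -0.32 without Runx1-KO 2 and -0.16 without Control 2. Itgb7 was 0.02 without Runx1-KO 1, 0.10 without Runx1-KO 3, 0.03 without Control 3 and 0.12 without both arrays numbered 1. Itgb3 was -0.24 with array weights, -0.09 without Runx1-KO 1, -0.15 without Control 1 and -0.37 without both arrays numbered 1. The others kept their sign in each alternative, with ranges of -0.87 to -0.05 for Itgax, -0.36 to -0.06 for Itgb2, -0.55 to -0.35 for Itga4, -0.83 to -0.30 for Itgb1, 0.33 to 0.85 for Itga5 and 0.29 to 0.87 for Itga6. The cause was not tested.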
